A study of Homo sapiens with 6 samples.

Results

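The caspases and their activator APAF1 were examined in RNA-seq libraries of A549 cells, a widely used human lung adenocarcinoma line. The members were the genes whose symbol in the deposited tables is CASP1, CASP2, CASP4, CASP6, CASP8, CASP9, CASP10 or APAF1. These are 8 of the 32192 genes of the count table, and all 8 passed the filter on low counts and are among the 31951 genes of the FPKM table. The compared groups had 3 libraries each: A549 cells transfected with an APEX1 overexpression plasmid (APEX1-OE) and A549 cells that received the control plasmid (Ctrl). APEX1 is a DNA repair endonuclease of the base excision pathway that also acts as a redox partner of transcription factors and binds RNA. The plasmid expresses APEX1 with a FLAG tag from a vector that also carries a fluorescent marker, and both groups share the parental line and the transfection. The question was whether the genes that carry out cell death differ in transcript level when APEX1 is overexpressed. Neither the time of RNA collection nor whether the libraries of a group came from separate transfections is given in the labels or methods, so p-values measure the spread between these libraries only.

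Caspases are cysteine proteases that cut their substrates after aspartate residues and are made as inactive proenzymes, so the transcript level does not report their activity. Initiator caspases are activated on platforms: CASP8 and CASP10 at death receptors, CASP9 on the apoptosome that APAF1 forms when cytochrome c leaves the mitochondria, and CASP2 on a separate platform of PIDD1 and CRADD. CASP6 is an effector caspase that cleaves lamins, and CASP1 and CASP4 are the inflammatory caspases, which process interleukin precursors or cleave gasdermin D and are known to be induced by interferon.

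The 7 caspases share a stretch of coding sequence around the catalytic cysteine, which is printed here because it shows how closely the members resemble each other where they are most alike. The sequences are from the reference transcripts of GENCODE release 44 on GRCh38, read 5′ to 3′ on the coding strand, and capitals mark the 5 codons of the conserved pentapeptide with the cysteine codon (TGC or TGT) in its middle.
CASP1: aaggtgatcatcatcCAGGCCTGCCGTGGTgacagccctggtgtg
CASP4: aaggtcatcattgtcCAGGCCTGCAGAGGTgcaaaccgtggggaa
CASP2: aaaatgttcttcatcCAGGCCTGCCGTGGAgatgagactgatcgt
CASP6: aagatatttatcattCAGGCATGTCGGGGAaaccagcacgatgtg
CASP8: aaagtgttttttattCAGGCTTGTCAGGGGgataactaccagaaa
CASP10: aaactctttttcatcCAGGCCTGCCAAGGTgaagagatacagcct
CASP9: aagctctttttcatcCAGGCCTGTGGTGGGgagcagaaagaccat
APAF1 is no protease and has no catalytic cysteine of this kind.

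Between pairs of caspases, 22 to 33 of these 45 bases were identical. The highest identity, 33 bases, was shared by CASP1 and CASP4, by CASP2 and CASP10 and by CASP9 and CASP10, and the lowest, 22 bases, by CASP4 and CASP6. In CASP8 and CASP10 the stretch lay within 1 exon, at chr2:201285070-201285114 and chr2:201209327-201209371 on the plus strand. In CASP1, CASP2, CASP4 and CASP9 an exon junction followed base 31, which is 1 base after the capitals. These 4 stretches span chr11:105029254-105029695 (CASP1, minus strand), chr7:143300264-143303797 (CASP2, plus strand), chr11:104948663-104949573 (CASP4, minus strand) and chr1:15495439-15504641 (CASP9, minus strand), introns included. In CASP6, at chr4:109690983-109694542 on the minus strand, the junction followed base 18, inside the capitals.

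On GRCh38, CASP10 (ENSG00000003400.14, chr2:201182872-201229428) and CASP8 (ENSG00000064012.21, chr2:201233443-201361836) are neighbours on the plus strand of chromosome 2. CASP4 (ENSG00000196954.12, chr11:104942866-104969366) and CASP1 (ENSG00000137752.22, chr11:105025397-105035250) lie in a caspase cluster on the minus strand of chromosome 11. CASP9 (ENSG00000132906.17) is at chr1:15490832-15526534 on the minus strand, CASP6 (ENSG00000138794.9) at chr4:109688622-109703583 on the minus strand, CASP2 (ENSG00000106144.19) at chr7:143288215-143307696 on the plus strand and APAF1 (ENSG00000120868.13) at chr12:98645290-98735433 on the plus strand. APAF1 shares 750 of its 7759 exon bases with ANKS1B on the opposite strand, CASP9 shares 101 of 5269 with CELA2B and CASP6 98 of 1943 with MCUB. CASP8 shares 343 of 7237 with an unnamed lncRNA on the same strand. The paper names a stranded library kit, but whether the counting used the strand is not given. Reads from the bases shared on opposite strands can therefore not be assigned here. For the bases that CASP8 shares, the strand could not separate the reads. CARD16 is a near copy of the first part of CASP1 and had 43 counts over the 6 libraries together. How reads that match both were counted is not known.

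The libraries held between 28131955 and 41009197 counts, and the members between 174 and 1645 counts in a library. APEX1, the targeted gene, had a mean FPKM of 689 ± 75.7 in the 3 APEX1-OE libraries and of 126 ± 2.50 in the 3 Ctrl libraries (± SD), and its log2 fold change in the counts was 2.42 (adjusted p = 0.00809, edgeR quasi-likelihood test). Plasmid and chromosomal transcripts of APEX1 were not separated. Of the epithelial markers, KRT8, KRT18 and KRT7 were at mean FPKM of 3046, 2464 and 2007, while EPCAM was at 0.342, and the summed FPKM of the 6 epithelial markers was 6683 to 9216 in APEX1-OE and 6198 to 8317 in Ctrl. The summed FPKM was at most 3.20 for 4 leukocyte, 0.0400 for 3 endothelial and 0.840 for 4 fibroblast markers in any library. The first principal component of log2 CPM (CPM, counts scaled to the TMM-normalised library total) held 72.6% of the variance and split the libraries across the groups. APEX1-OE replicate 1 and Ctrl replicates 1 and 2 lay on one side (set A), and APEX1-OE replicates 2 and 3 and Ctrl replicate 3 on the other (set B).

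The 8 genes lay between 0.680 and 9.26 FPKM, and CASP8, the initiator at death receptors, stood highest in every library. Levels are given as FPKM, fragments scaled to transcript length and to library size, in the order replicate 1, 2 and 3. CASP8 was at 5.68, 8.43 and 9.26 in APEX1-OE and at 7.15, 7.04 and 8.61 in Ctrl. The APEX1-OE values enclosed those of Ctrl, with replicate 1 the lowest of all 6. CASP10, its neighbour and closest relative in function, was at 1.25, 1.68 and 1.81 in APEX1-OE and at 1.50, 1.44 and 1.86 in Ctrl. The ranges overlapped, and CASP10 ranked 7th or 8th of the members in each library.

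For the apoptosome, the protease CASP9 varied little in FPKM and the scaffold APAF1 varied most of all members. CASP9 was at 2.51, 2.25 and 2.48 FPKM in APEX1-OE and at 2.99, 2.42 and 2.38 in Ctrl. Ctrl replicate 1 was the highest, and the other 5 libraries lay close together. APAF1 was at 0.680, 1.70 and 1.91 in APEX1-OE and at 0.910, 0.840 and 1.87 in Ctrl. The 3 low and the 3 high values of APAF1 were those of library sets A and B, and each group held both kinds. The coefficient of variation of FPKM over the 6 libraries was 43.0% for APAF1 and 10.2% for CASP9. In CPM the spread of CASP9 was wider, from 12.1 in APEX1-OE replicate 2 to 17.4 in Ctrl replicate 1. Every set B library was then below every set A library.

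CASP2, the initiator with its own platform, was the steadiest member, with a coefficient of variation of 8.89%. It was at 3.91, 5.08 and 4.81 FPKM in APEX1-OE and at 4.95, 4.63 and 4.87 in Ctrl. The lowest and the highest FPKM were both from APEX1-OE libraries. In CPM the lowest was APEX1-OE replicate 1 (23.2) and the highest Ctrl replicate 1 (27.0). The effector CASP6 was at 2.69, 3.50 and 5.02 FPKM in APEX1-OE and at 3.45, 3.86 and 4.64 in Ctrl. The APEX1-OE values of CASP6 also reached below and above those of Ctrl.

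The inflammatory caspases were expressed at levels between those of CASP8 and APAF1. CASP4, which senses cytosolic lipopolysaccharide, was at 3.42, 5.42 and 6.50 FPKM in APEX1-OE and at 4.94, 3.80 and 5.64 in Ctrl. CASP1, the inflammasome protease, was at 1.99, 3.43 and 3.94 in APEX1-OE and at 2.15, 1.85 and 2.86 in Ctrl. APEX1-OE replicates 2 and 3 were above all 3 Ctrl libraries for CASP1, and APEX1-OE replicate 1 was between Ctrl replicates 2 and 1.

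**Figure D1:**
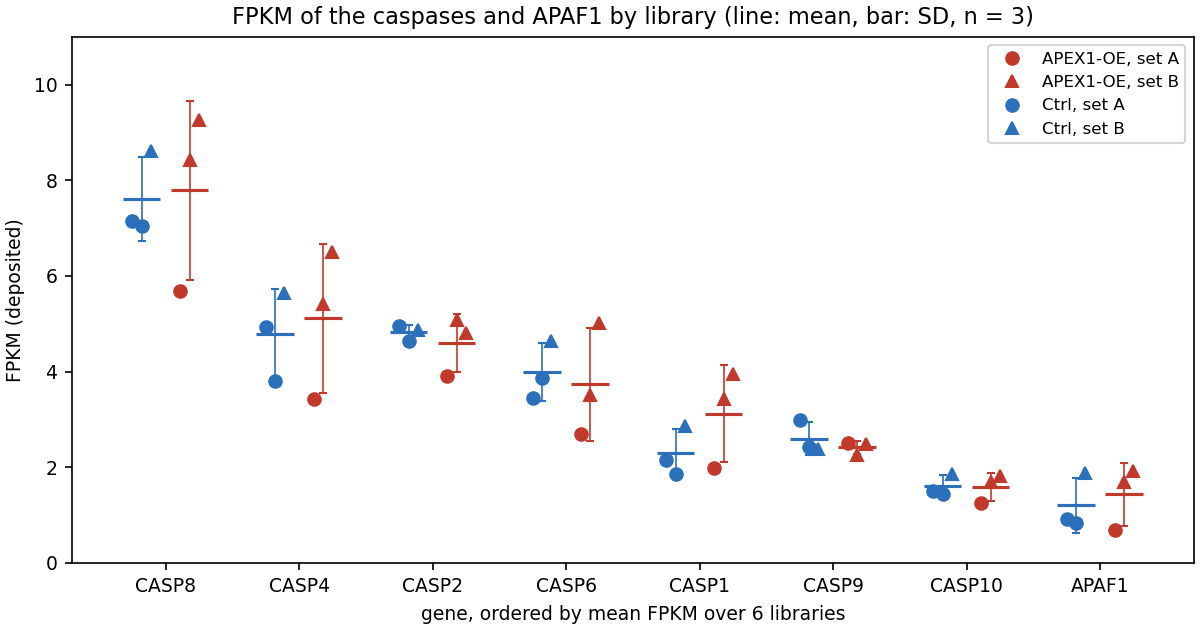
Deposited FPKM (vertical axis) of the 8 members, ordered by their mean over 6 libraries. Points are libraries, coloured by group and shaped by library set, lines are group means and bars SD (n = 3). CASP8 is highest in every library, and the APAF1 values fall into a low and a high trio that follow the library sets and not the groups.

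By mean FPKM over the 6 libraries the order was CASP8 (7.70 ± 1.31, SD), CASP4 (4.95 ± 1.16), CASP2 (4.71 ± 0.419), CASP6 (3.86 ± 0.851), CASP1 (2.70 ± 0.851), CASP9 (2.51 ± 0.254), CASP10 (1.59 ± 0.235) and APAF1 (1.32 ± 0.566). Of the 28 pairs of members, 23 stood in the same order in all 6 libraries. Between neighbours in the order, CASP8 was above CASP4 by 1.57-fold, CASP6 above CASP1 by 1.46-fold and CASP9 above CASP10 by 1.58-fold, each in 6 of 6 libraries (exact two-sided sign-flip permutation test within libraries, p = 0.0312, the smallest that 6 libraries allow, and adjusted p = 0.0729 over the 7 neighbour pairs). CASP2 was above CASP6 in 5 of 6 libraries (adjusted p = 0.109 in the same exact test). CASP4 against CASP2, CASP1 against CASP9 and CASP10 against APAF1 changed places, each with 3 of 6 libraries in either direction. No neighbour pair passed the threshold of 0.05 after adjustment, and at the unadjusted level 3 did. The order was taken from the same 6 libraries. For a pair at the smallest possible p, the adjusted p depends only on how many of the 7 pairs reach it.
The order depended on the gene length used, and with the other length 5 of the 7 neighbour pairs passed the threshold (adjusted p = 0.0438, same exact test), of which CASP4 against CASP2 and CASP2 against CASP6 ran the other way. With CPM divided by the kb of annotated exons in GENCODE, CASP6 (4.30 ± 0.702, SD, n = 6) stood second and CASP4 (2.04 ± 0.345) fell behind CASP2 (3.10 ± 0.183), CASP9 (2.70 ± 0.397) and CASP1 (2.20 ± 0.550). CASP8 (5.10 ± 0.510) stayed at the top and APAF1 (1.52 ± 0.560) and CASP10 (1.46 ± 0.112) at the bottom.

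No member passed the threshold between APEX1-OE and Ctrl in the edgeR quasi-likelihood test on the counts. Of the 8 members, 0 had an adjusted p under 0.05, against 1 of the 16971 tested genes (0.00589%), which was APEX1 itself. At an unadjusted p under 0.05 there were 0 members, against 118 of the 16971 tested genes. DESeq2 and limma on the FPKM values each called 1 gene at the adjusted level, and 0 members at either level. Unadjusted, 130 of 32190 genes were under 0.05 in DESeq2. In limma these were 112 of 16970 with FPKM + 1 and 109 with FPKM + 0.1. With so few genes under it, 0 of 8 does not set the members apart. The groups of 3 CPM values overlapped for all 8 members, against 3.39% of all tested genes whose groups did not overlap. The exact two-sided permutation test on log2 FPKM gave p between 0.3 and 1.0 for the members, where 3 libraries against 3 allow no p under 0.1.
CASP1 had the largest difference. Its mean CPM was 9.97 with an SD of 2.37 over the APEX1-OE libraries and 7.47 with an SD of 1.25 over the Ctrl libraries. Its log2 fold change was 0.42, with a standard error of 0.269 and a 95% interval of -0.20 to 1.04 (unadjusted p = 0.159, adjusted p = 1.0, edgeR). APAF1 followed, at a mean CPM of 12.7 with an SD of 4.96 under overexpression and of 10.95 with an SD of 4.51 under control plasmid, a log2 fold change of 0.21 with a standard error of 0.401. Its 95% interval of -0.72 to 1.14 was the widest of the members. CASP4 was at a log2 fold change of 0.06 (95% interval -0.53 to 0.65) and CASP8 at 0.0056 (-0.46 to 0.47). CASP10 was at -0.04 (-0.53 to 0.45), CASP2 at -0.09 (-0.54 to 0.36), CASP9 at -0.12 (-0.66 to 0.43) and CASP6 at -0.12 (-0.70 to 0.45). The members were thus divided into 4 with a positive and 4 with a negative value, with a median of -0.02, where the median of all tested genes was 0.03. As folds, the interval was widest for APAF1, from 0.608 to 2.20, while that of CASP2 ran from 0.688 to 1.28 and that of CASP8 from 0.726 to 1.39. A change of any size inside its interval is compatible with the counts of a member in this fit. The smallest change that the fit could detect is not given. A lower level in all cells and fewer cells that express a gene cannot be told apart in bulk libraries.

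The level of most members, as of many tested genes, differed more between the library sets than between the groups, with CASP2 the exception. In 5 of the 8 members (CASP1, CASP4, CASP8, CASP10 and APAF1) all 3 set B libraries were above all 3 set A libraries in log2 CPM, as in 35.5% of all tested genes. In CASP9 all set B libraries were below those of set A, as in 30.9% of all tested genes. The sets were found in the same counts, so these are descriptions without a test.
APAF1 had a mean log2 CPM of 3.98 in set B and 2.99 in set A, a difference of 0.99, which was larger than in 90.2% of the tested genes. CASP1 differed by 0.57, CASP4 by 0.36, CASP8 by 0.23, CASP6 by 0.21, CASP10 by 0.17, CASP2 by -0.05 and CASP9 by -0.33.
Across the 16746 tested genes with a known GC content, the difference between sets fell with GC content (r = -0.78, across genes, which are not independent replicates and share the 6 libraries). CASP9, at 53.6%, had the highest GC content of the members and was the only one with all set B libraries lower. The median difference of the 1096 genes within 1 percentage point of its GC content was -0.26. For APAF1, at 41.6% GC, the median of the 1422 genes of like GC content was 0.67, and its own 0.99 lay above their upper quartile of 0.95. CASP8, at 39.1%, and CASP4, at 38.3%, lay below the lower quartiles of their like genes (0.55 and 0.60). CASP2, at 44.9%, also lay below its lower quartile of 0.09. For 6 of the 8 members the difference between the sets was smaller in size than the median of genes of like GC content, and for APAF1 and CASP9 it was larger.

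**Figure D2:**
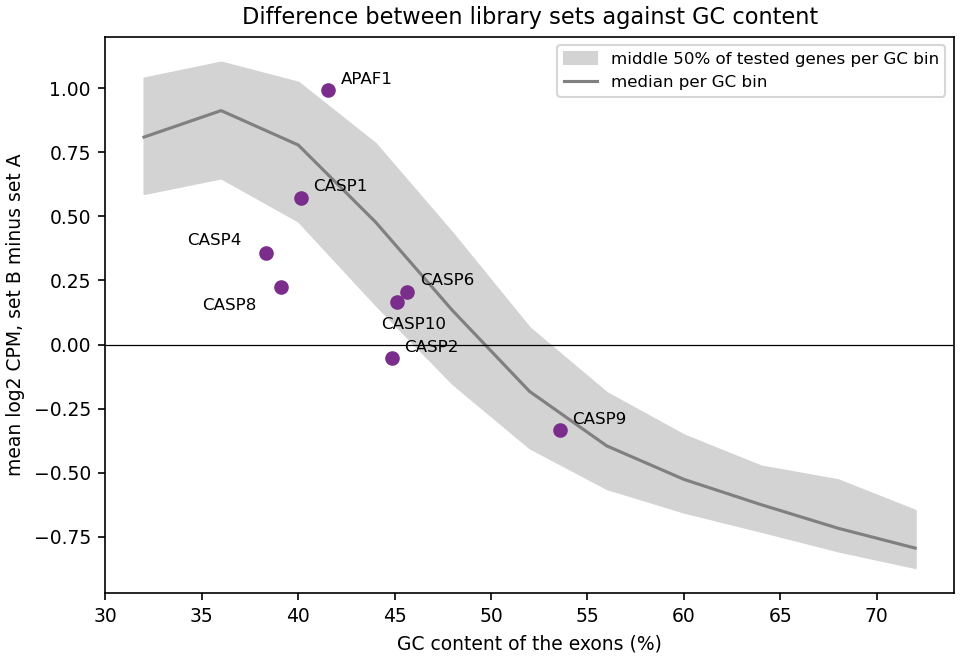
Difference in mean log2 CPM between library sets (set B minus set A, vertical axis) against the GC content of the annotated exons in percent (horizontal axis). The grey line and band are the median and the middle 50% of tested genes in bins of GC content, and points are the 8 members. APAF1 lies at the upper edge of the band at 0.99, CASP8, CASP4 and CASP2 lie below the band, and CASP9 is the lowest member at -0.33.

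With the library set as a second term in the edgeR fit, the intervals narrowed and 0 of 8 members were called, against 4 of 16971 genes (0.0236%). At an unadjusted p under 0.05 there were 0 of 8 members against 11.6% of all tested genes. CASP1 was at a log2 fold change of 0.24 (95% interval -0.06 to 0.54, unadjusted p = 0.106, adjusted p = 0.519, edgeR). APAF1, positive in the fit without the set, was at -0.15 (-0.42 to 0.12), and CASP4 and CASP8 also changed sign, to -0.07 (-0.38 to 0.23) and -0.09 (-0.31 to 0.14). In this fit 1 member was positive and 7 were negative, with a median of -0.08, where the median of all genes was 0.0081. When GC content and length also entered as an offset, the unadjusted p of CASP1 was 0.0172 (log2 fold change 0.30, 95% interval 0.06 to 0.54, adjusted p = 0.304, edgeR). That was 1 of 8 members, against 12.3% of all tested genes at this level. The library set was taken from these same counts, and the offset was fitted to them. The p-values and intervals of both fits treat them as known in advance, so they are read as descriptions.
Within the sets, CASP1 in APEX1-OE replicate 1 (7.33 CPM) was above Ctrl replicates 1 and 2 (7.25 and 6.34), and in APEX1-OE replicates 2 and 3 (10.7 and 11.9) above Ctrl replicate 3 (8.81). Such an order, with APEX1-OE above Ctrl in each set, was found in 17.8% of all tested genes. In FPKM the order of CASP1 did not hold in set A, with APEX1-OE replicate 1 at 1.99 and Ctrl replicate 1 at 2.15. CASP10 was the only member with the opposite order, 11.5 CPM against 12.7 and 12.4 in set A and 13.1 and 13.7 against 14.4 in set B, as in 10.0% of all tested genes. The margins were small for both, and for the other 6 members the groups overlapped within at least 1 set.

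**Figure D3:**
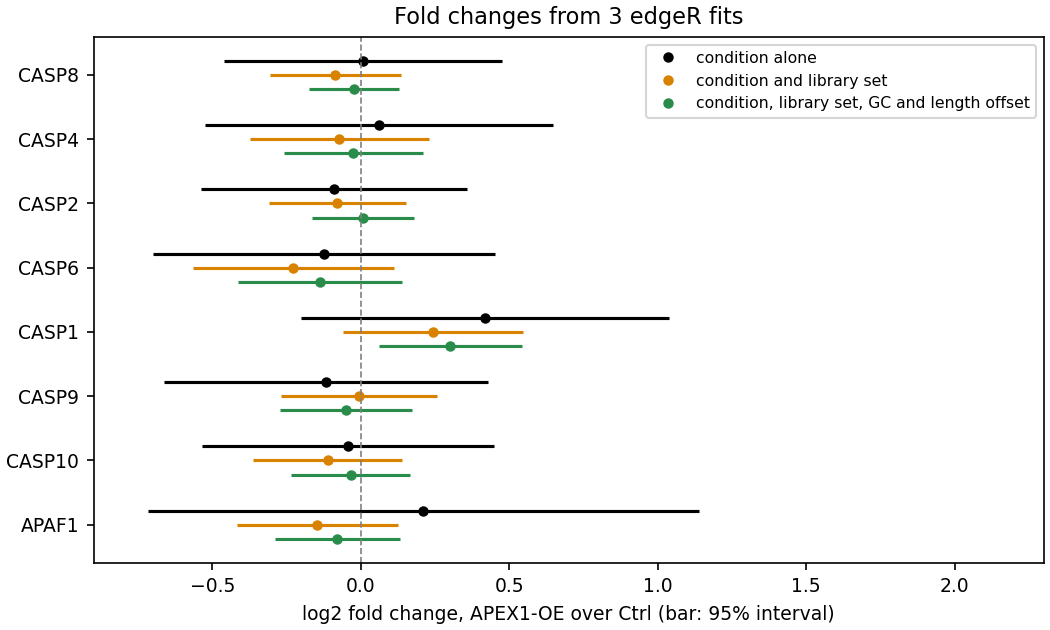
Log2 fold change of APEX1-OE over Ctrl (horizontal axis) with 95% intervals for the 8 members in 3 edgeR fits, with the condition alone, with the library set as a term, and with GC content and length as an offset besides. All intervals include 0 except that of CASP1 in the last fit, which runs from 0.06 to 0.54 before any adjustment for the number of genes. The library set and the offset come from the same counts as the fold changes.

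Ratios within a library compare members without regard to the scaling between libraries. The ratio of CASP1 to CASP4, both in the inflammatory cluster, was 0.582, 0.633 and 0.606 in APEX1-OE and 0.435, 0.487 and 0.507 in Ctrl. The groups did not overlap, with means of 0.607 ± 0.0255 and 0.476 ± 0.0371 (SD, n = 3 each), and both library sets were present in each group. Taken as CPM, 4 of the 28 pairs of members had ratios whose groups did not overlap, against 5.15% of all pairs of tested genes. All 4 pairs contained CASP1, with CASP4, CASP6, CASP8 or CASP10 as partner, so they rest on the same CASP1 values. This count was looked at after the values were seen and has no test.
The ratio of CASP10 to CASP8 was the steadiest of the 3 role pairs, between 0.195 and 0.220 in the 6 libraries, with means of 0.205 ± 0.0132 in APEX1-OE and 0.210 ± 0.0057 in Ctrl (SD, n = 3 each). The ratio of APAF1 to CASP9 was 0.271, 0.756 and 0.770 in APEX1-OE and 0.304, 0.347 and 0.786 in Ctrl. It followed the library sets, from at most 0.347 in set A to at least 0.756 in set B.
Summed over the death receptor initiators, CASP8 and CASP10 together were at 9.37 ± 2.17 FPKM in APEX1-OE and 9.20 ± 1.10 in Ctrl (SD, n = 3 each). CASP9 and APAF1 together were at 3.84 ± 0.607 and 3.80 ± 0.502, and CASP1 and CASP4 at 8.23 ± 2.57 and 7.08 ± 1.43. These differences between groups were smaller than the SD within either group.

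**Figure D4:**
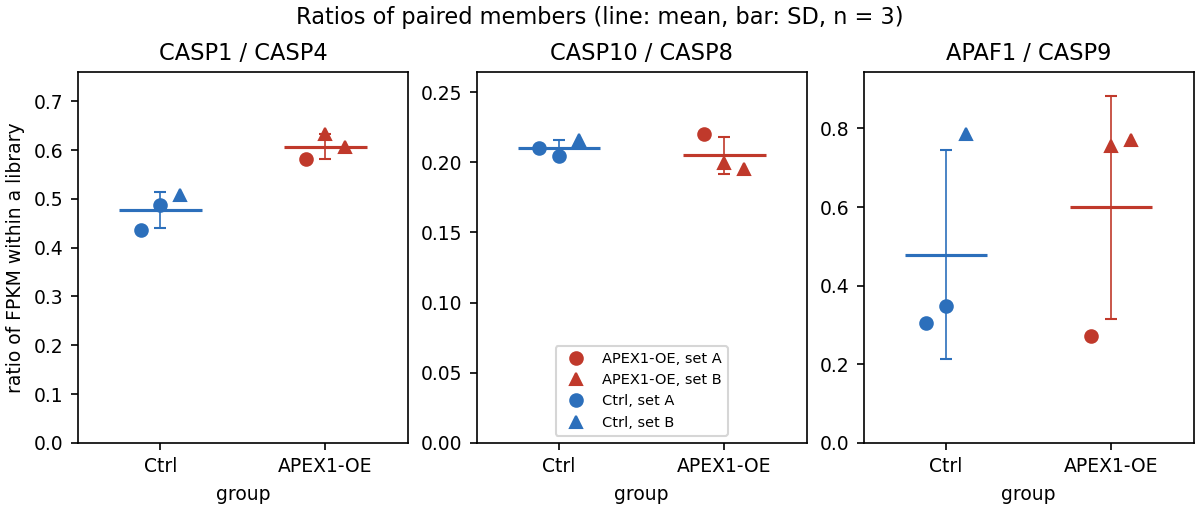
Ratio of deposited FPKM within a library (vertical axes, from 0) for CASP1 over CASP4, CASP10 over CASP8 and APAF1 over CASP9, by group. Points are libraries shaped by library set, lines are means and bars SD (n = 3). The CASP1 to CASP4 ratio is 0.582 or more in APEX1-OE and 0.507 or less in Ctrl, while the APAF1 to CASP9 ratio is split by library set.

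Other genes of the pathways were taken from 7 lists of receptors, mitochondrial factors, inhibitors, inflammasome parts, platform proteins and substrates. Of 56 listed genes, 54 were found in the count table and 44 passed the filter. Of the 44, 0 were called higher and 0 lower in APEX1-OE by edgeR, with 0 at an unadjusted p under 0.05. Over all 16971 tested genes, 1 was called and 118 were at an unadjusted p under 0.05. The median log2 fold change of the 44 was 0.03, equal to that of all tested genes at 2 decimals. Among the 44, 4 had groups without overlap, against 3.39% of all tested genes. With the library set as a term, 9 of the 44 had an unadjusted p under 0.05 and 0 were called by edgeR, against 11.6% and 0.0236% of all tested genes.
These 4 were CFLAR, the inactive caspase homologue that restrains CASP8, at a log2 fold change of 0.15 (standard error 0.172), TNFRSF10D, a decoy receptor for TRAIL, at 0.32 (0.189), GSDME, a pore-forming gasdermin cut by effector caspases, at -0.15 (0.187), and DFFB, the nuclease of apoptotic DNA fragmentation, at -0.25 (0.219). Each had an adjusted p of 1.0 from edgeR.
CASP5, the third gene of the inflammatory cluster, had 1 count in all 6 libraries together.
Of the death receptors, ligands and adaptors, 10 were tested, with a median log2 fold change of 0.04, and TNFRSF1A, the main TNF receptor, was the highest at a mean of 179 FPKM. Of the mitochondrial factors, 8 were tested, with a median of -0.02, and BAX, which permeabilises the outer membrane, was at 222 FPKM.
The 7 caspase inhibitors had the highest median, 0.34, and 6 of the 7 values were positive, but none passed the test. Their median difference between library sets was 0.78, and with the library set as a term their median log2 fold change was 0.09. BIRC5, a mitotic regulator of this family, had the highest level at 14 FPKM. The inflammasome and pyroptosis list had 7 tested genes of 13 and a median of -0.01. Its best expressed gene was IL18, a substrate of CASP1, at 60.0 FPKM. The platform genes of CASP2, led by PIDD1 at 6.72 FPKM, had a median of 0.05, and the caspase substrates, led by KRT18, a median of 0.02 over 7 tested genes.

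**Figure D5:**
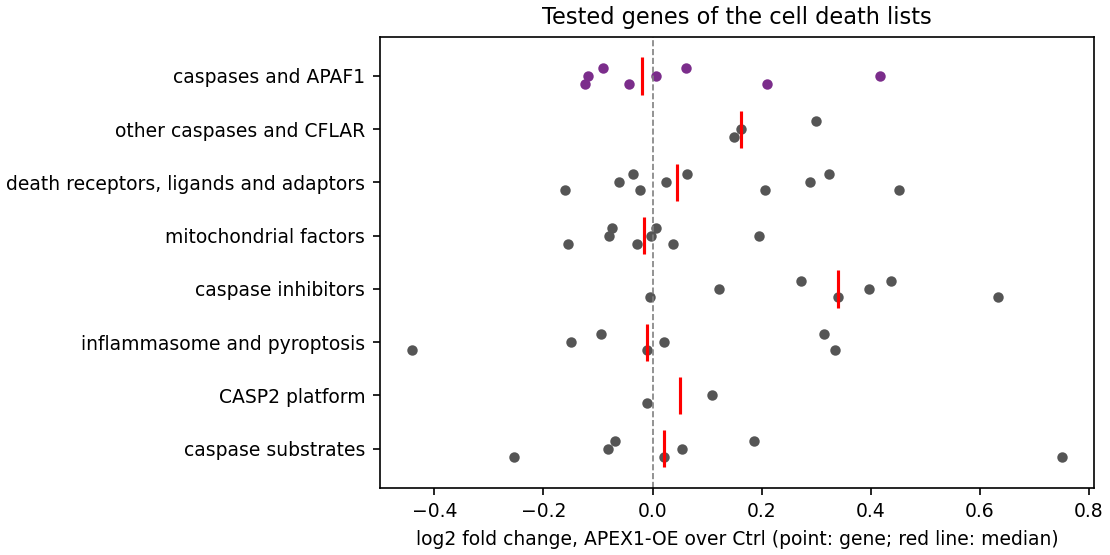
Log2 fold change of APEX1-OE over Ctrl (horizontal axis) for the 8 members and the tested genes of 7 cell death lists. Points are genes and red lines list medians. The medians lie between -0.02 and 0.34, with the caspase inhibitors the highest, and no gene was called.

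For each member, the gene with the most similar profile was found as the smallest root mean square difference between log2 CPM deviations over the 6 libraries. For APAF1 this was PPM1B, a protein phosphatase, with a difference of 0.0230, against a median of 0.537 over all tested genes. For CASP9 it was MRPL20, a mitochondrial ribosomal protein, at 0.0270, for CASP8 CHCHD4, a mitochondrial import factor, at 0.0189, and for CASP10 MAPKAP1, a subunit of a TOR kinase complex, at 0.0302. CASP2 was closest to TACC2 (0.0200), CASP4 to SH2B3 (0.0480), CASP6 to a gene with a clone-based name (0.0539) and CASP1 to AC084219.4 (0.0547). Each nearest gene was picked as the smallest difference over all tested genes on 6 values, so a difference far below the median was bound to be found. The profiles of all genes carry the difference between library sets, so likeness over 6 libraries includes it. CASP1, CASP4 and CASP6 had the largest distances to their nearest genes.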

How the data were processed

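RNA-seq of A549 cells was analysed, with 3 APEX1-OE and 3 Ctrl libraries grouped by their labels. The authors trimmed reads with the FASTX-Toolkit 0.0.13, aligned them to GRCh38 with tophat2 and deposited raw counts per gene from uniquely mapped reads. The deposited FPKM were made by the authors from the same reads. The counting tool, annotation and use of strand were not given in the sources used here. The counts sum all isoforms of a gene.

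All genes were fitted in R 4.3.3 with edgeR 4.0.16 (filterByExpr with a minimum count of 10, TMM, robust quasi-likelihood F-test, condition as the only term), with Benjamini-Hochberg adjustment at 0.05. limma 3.58.1 was used on log2(FPKM + 1) and log2(FPKM + 0.1) and DESeq2 1.42.0 on the counts, as alternatives. The fit was tested on simulated counts, and the outcome is not reported here. Exon length, GC content (98.7% of tested genes) and coding sequences came from GENCODE release 44, matched without version for 31231 identifiers. The offset used splines with 5 degrees of freedom. Replicate numbers were not used to pair the libraries in the main fit, and the labels do not say whether they mark pairs. The members, lists, ratios and library sets were chosen with earlier results of these data known. Named were the members, APEX1, list genes that were called, had groups without overlap or led their list in FPKM, the nearest gene of each member, and genes that share sequence with a member. The markers come from fixed lists. CASP5 and the genes that share sequence lie outside this rule and were chosen after their values were seen. For 1 list, its leading gene is not reported here.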

Additional observations from a re-analysis of the deposited data

How the results depend on the processing

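No member was called in any of the 14 alternatives, and the lowest adjusted p over the 112 member values was 0.304. The count of called genes, 1 in the main test, was 10 without a filter on low counts, 2 with the replicate block, 4 with the library set as a term and 20 with the GC and length offset besides, and 0 to 1 with each library left out (0 without APEX1-OE replicate 2 or 3 or Ctrl replicate 1 or 2). With each library left out APEX1 stayed between 2.36 and 2.46 on the log2 scale, but its adjusted p rose to 0.118, 0.0674, 0.210 and 0.207 without APEX1-OE replicate 2 or 3 or Ctrl replicate 1 or 2 (edgeR). Members without overlap numbered 0 to 2 with each library left out, the 2 without Ctrl replicate 3. Groups separate more readily with 1 library fewer. The share of all tested genes in these settings is not given, so these counts cannot be set against it. Without APEX1-OE replicate 1 the unadjusted p of CASP1 was 0.036 and the adjusted p 0.507 (edgeR). In that setting 1 member had an unadjusted p under 0.05, against 1324 of 17409 tested genes. Of the 112 member values, 18 had the opposite sign. With the library set as a term these were CASP4 (-0.073), CASP8 (-0.086) and APAF1 (-0.15), and with the offset besides CASP2 (0.0070), CASP4 (-0.026), CASP8 (-0.024) and APAF1 (-0.079). With the replicate block CASP8 was at -0.0034. The labels do not say whether same-numbered libraries are pairs. These libraries correlated at 0.607, -0.52 and 0.70 in their deviations, and replicate 1 of APEX1-OE correlated best with Ctrl replicate 2. The deviations carry the difference between library sets, so these correlations cannot decide whether the libraries are paired. With each library left out the log2 fold changes ran from 0.27 to 0.58 for CASP1, -0.14 to -0.06 for CASP2, -0.092 to 0.20 for CASP4, -0.33 to -0.02 for CASP6, -0.083 to 0.10 for CASP8, -0.26 to 0.0048 for CASP9, -0.10 to 0.024 for CASP10 and -0.0043 (without APEX1-OE replicate 3) to 0.60 (without Ctrl replicate 3) for APAF1. Neighbour pairs past the threshold in the order of levels numbered 0 with FPKM and 5 with CPM per kb of annotated exons, where 2 of them ran in the other direction. The cause of these changes was not tested. The members had 174 to 1645 counts a library, and the part of depth in the width of their intervals was not tested.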
